A study of Mus musculus with 6 samples.

Results

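A group of 10 genes around the APPL adaptor proteins was examined in mouse osteosarcomas with and without *Cd44*. They are the paralogous adaptors *Appl1* and *Appl2*, the adiponectin receptors *Adipor1* and *Adipor2*, the early endosome GTPases *Rab5a*, *Rab5b*, *Rab5c* and *Rab21*, the tethering protein *Eea1* and the kinase *Akt2*. The set was built around *Appl2*, which was chosen by its lower counts in the *Cd44*-/- tumors of this same series, and the other 9 genes were added as its paralog and partners. All 10 genes were found among the 39179 genes of the count table, and 10 of 10 passed the low-count filter, which left 16839 genes for testing. The question was whether the difference in *Appl2* was shared by its paralog or its partners.

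RNA was sequenced from osteosarcomas of 6 mice of mixed strain background (C57BL/6 x 129/Sv x FVB), each labelled with its mouse number. Of the tumors, 3 were CD44+/+; Nf2Δ2/+ (No244, No316 and No368) and 3 were CD44-/-; Nf2Δ2/+ (No203, No279 and No364), so that the *Nf2* mutation was carried by both groups. CD44 is a cell surface glycoprotein that binds hyaluronan. The study's methods name tumor tissue as the source of the RNA, whereas the extraction label speaks of cell lines, and neither age nor sex was given.

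APPL1 and APPL2 are adaptor proteins that bind membranes, form dimers with each other and occupy a population of early endosomes as effectors of the Rab5 and Rab21 GTPases. APPL1 binds the intracellular part of the adiponectin receptors and connects them to the kinases AMPK and Akt, and APPL2 can oppose it in muscle cells. When these endosomes mature, the APPL proteins give way to EEA1, which tethers endosomes for fusion.

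Total counts lay between 18076388 and 26954142 per tumor, and a floor of 3 counts corresponded to between 0.0990 and 0.252 CPM. A CPM is a count scaled to the size of its library, here corrected with the TMM factors of edgeR. Where 3 values follow each other, they stand for No244, No316 and No368 among the *Cd44*+/+ tumors and for No203, No279 and No364 among the *Cd44*-/- tumors. The *Cd44* gene itself had 137.3, 243.6 and 240.3 CPM in *Cd44*+/+ and 19.2, 15.7 and 61.8 CPM in *Cd44*-/- tumors. Its fitted log2 fold change was -2.68 (unadjusted p = 0.00494 and adjusted p = 0.452 with edgeR). The test used below thus did not call even the targeted gene, so a gene without a call may still differ. The counts of No316 and No368 differed by less than sampling noise for 87.2% of genes and for 9 of the 10 genes examined, against 15.7% to 24.1% of genes in the other 14 pairs of tumors, so this pair was counted as 1 sample in each mean ± SD (n = 2 for *Cd44*+/+ and n = 3 for *Cd44*-/-). Mitochondrial genes took 55.2% of the counts of No244 and 5.94% to 12.5% elsewhere. No244 also had the highest summed level of 8 skeletal muscle markers, 19258.3 CPM against 15.8 to 813.1 CPM in the other tumors. The summed level of 7 erythroid markers was highest there too, with 9596.1 CPM against 136.7 to 3499.9 CPM. All 12 hepatocyte markers were highest in No364, where their summed level was 126758.5 CPM against 48.9 to 167.3 CPM in the other tumors. Of 10 osteoblast markers, *Sp7*, a transcription factor of bone-forming cells, had 3.96 and 0.314 CPM in No279 and No364 against 192.0 to 333.2 CPM in the other 4 tumors, and *Ibsp*, *Bglap*, *Alpl* and *Dmp1* were low in both as well. No279 still had 11990.4 CPM of the collagen gene *Col1a1* (764.9 CPM in No364) and 68.3 CPM of *Runx2* (5.76 CPM in No364), and the summed level of the 10 markers was 22538.5 CPM in No279, 3691.1 CPM in No364 and 33865.7 to 84906.2 CPM in the other tumors. Summed counts of 4 Y-linked genes were 1333 in No279 and 1329 in No364 and at most 39 in the other tumors, so these tumors of the *Cd44*-/- group also stood apart in this measure from all *Cd44*+/+ tumors, whereas No203 did not. Values without No364 or with No203 as the only *Cd44*-/- tumor are given beside the results. The part of these differences between tumors in the results was not tested, and in bulk RNA fewer cells of a type and less RNA per cell cannot be told apart.

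*Appl2* was the higher of the paralogs in every tumor, by counts and per exonic length, and its level in all *Cd44*-/- tumors lay below that of the *Cd44*+/+ tumors. It had 206.3, 180.3 and 174.9 CPM in *Cd44*+/+ and 54.1, 39.0 and 33.2 CPM in *Cd44*-/- tumors. The genotypes did not overlap. The means were 191.9 ± 20.3 CPM (SD, n = 2) and 42.1 ± 10.8 CPM (SD, n = 3), and the fitted log2 fold change of *Cd44*-/- over *Cd44*+/+ was -2.15 with a standard error of 0.36. Because this difference chose the gene, it is given as a description without a test. It was -2.00 without No364 and -1.79 with No203 alone, and ranged from -2.40 to -2.00 when each tumor was left out in turn. The raw counts behind it were 2455, 5187 and 4165 in the *Cd44*+/+ tumors and 1365, 1182 and 634 in the *Cd44*-/- tumors. The study also measured *Appl2* by quantitative PCR in cultured osteosarcoma cells, and found no significant difference there by *Cd44* status.

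**Figure D1:**
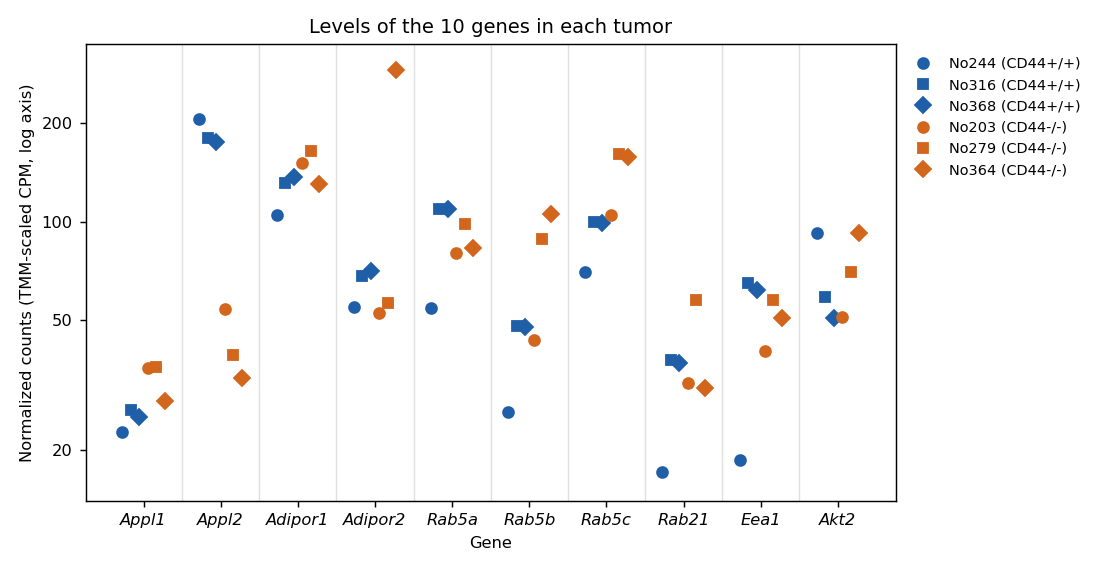
Normalized counts (TMM-scaled CPM, log axis) of the 10 genes, with 1 point for each tumor, blue for *Cd44*+/+ and orange for *Cd44*-/-. Only for *Appl2* do the *Cd44*-/- points (33.2 to 54.1 CPM) lie wholly under the *Cd44*+/+ points (174.9 to 206.3 CPM), and the highest point for *Adipor2* is No364.

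*Appl2* (ENSMUSG00000020263) lies on the minus strand of chromosome 10 (GRCm38, chr10:83600033-83648738) and no other annotated gene overlaps it. None of the 51-base words of its transcripts is shared with *Appl1*, so reads of the adaptors could be told apart by sequence, and 0.692% of its words are shared with other genes. The sequence directly upstream of the annotated start is shown because it is the stretch next to which transcription of the gene whose level differed begins. It covers 176 bases (GRCm38, chr10:83648739-83648914, minus strand, from the RefSeq promoter table) and has a GC content of 71.6% with 17 CpG dinucleotides.
*Appl2* upstream: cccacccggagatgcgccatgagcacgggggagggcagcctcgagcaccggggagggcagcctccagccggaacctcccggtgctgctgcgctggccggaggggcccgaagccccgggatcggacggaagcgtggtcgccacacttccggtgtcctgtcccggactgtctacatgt

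A pair of motifs was searched on both strands in the 250 bases before each RefSeq start (for *Appl2* this start lies 74 bases inside the GENCODE gene, so the window holds the stretch shown), namely CCTGCG, described as an element bound by the CD44 intracellular domain, and TGAGTCA, the binding motif of AP-1 factors. Neither was found in the window of *Appl2*. Of 13 windows from 9 of the genes (*Appl1* had no entry), 3 held CCTGCG (23.1%, in *Adipor1*, *Akt2* and *Rab21*), against 14.1% of 32851 windows of all genes. TGAGTCA was found in 0 of 13 windows, against 4.46% of all windows.

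*Appl1*, the paralog, did not share the lower level and was somewhat higher in the *Cd44*-/- tumors. It had 22.8, 26.6 and 25.2 CPM in *Cd44*+/+ and 35.8, 36.0 and 28.2 CPM in *Cd44*-/- tumors. The genotypes did not overlap, but the gap between No364 and No316 was small. The means were 24.3 ± 2.21 CPM (SD, n = 2) and 33.3 ± 4.42 CPM (SD, n = 3). The fitted log2 fold change came to 0.42 (standard error 0.29, 95% interval -0.27 to 1.12) and did not pass the test (edgeR quasi-likelihood test, Benjamini-Hochberg adjusted p = 0.590). It was 0.54 without No364 and 0.53 with No203 alone. Scaled by library size alone, the genotypes overlapped, since No364 then lay below No316 (34.9 CPM) and No368 (33.2 CPM). *Appl1* (ENSMUSG00000040760) lies on chromosome 14 (GRCm38, chr14:26918988-26971232, minus strand) and is overlapped by the noncoding gene *Gm41115* on the other strand.

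The ratio of the paralogs needs no scaling between tumors, and it separated the genotypes. There were 9.06, 6.79 and 6.93 counts of *Appl2* for each count of *Appl1* in *Cd44*+/+ and 1.51, 1.09 and 1.18 in *Cd44*-/- tumors. With each tumor taken separately, the mean log2 ratio of the counts was lower by 2.60 in the *Cd44*-/- tumors (-2.60). With No316 and No368 summed as 1 sample, the difference was -2.66. It was -2.31 with No203 alone and -2.74 to -2.46 with each tumor left out. Since *Appl2* chose the set, this ratio is also a description.

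Per exonic length, *Appl2* supplied most of the adaptor mRNA in both genotypes. Its share of the summed RPKM of both adaptors was 93.0%, 90.9% and 91.0% in *Cd44*+/+ and 68.9%, 61.4% and 63.3% in *Cd44*-/- tumors. The summed RPKM of the adaptors was 35.1 ± 3.16 (SD, n = 2) in *Cd44*+/+ tumors and 10.9 ± 2.20 (SD, n = 3) in *Cd44*-/- tumors. *Appl1* lay between 2.61 and 4.12 RPKM in all 6 tumors.

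**Figure D2:**
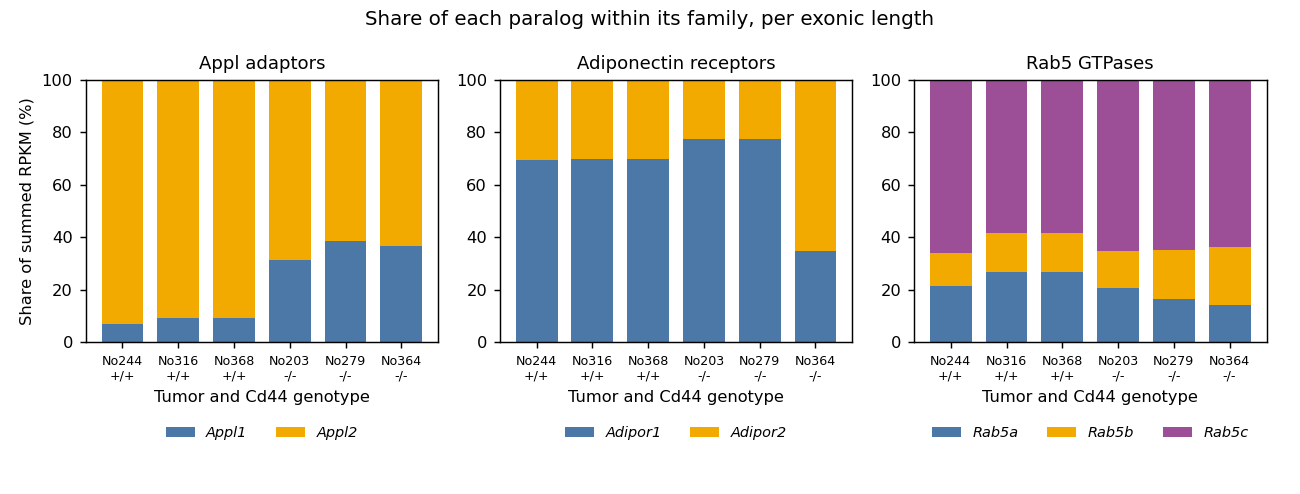
Share of each paralog in the summed RPKM of its family (%), with 1 stacked bar for each tumor. The *Appl2* share is 90.9% to 93.0% in *Cd44*+/+ and 61.4% to 68.9% in *Cd44*-/- tumors, and the *Adipor2* share of 65.3% in No364 stands apart from 22.5% to 30.6% in the other tumors.

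The adiponectin receptors, through which cells respond to adiponectin, showed no difference between the genotypes that passed the test. *Adipor1* had 104.8, 131.8 and 136.7 CPM in *Cd44*+/+ and 151.7, 164.1 and 130.3 CPM in *Cd44*-/- tumors. The genotypes overlapped, because No364 was below No316 and No368. The fitted log2 fold change came to 0.26 (standard error 0.34, 95% interval -0.55 to 1.06, adjusted p = 0.783 with edgeR). *Adipor2* had 55.0, 68.2 and 70.8 CPM in *Cd44*+/+ and 52.4, 56.6 and 291.7 CPM in *Cd44*-/- tumors, the high value being that of No364. Its log2 fold change of 1.05 (standard error 0.72, 95% interval -0.68 to 2.77, adjusted p = 0.592 with edgeR) turned to -0.24 without No364, the tumor with the hepatocyte markers, and was -0.30 with No203 alone. The share of *Adipor1* in the summed RPKM of both receptors was 69.4% to 69.7% in the *Cd44*+/+ tumors, 77.5% in both No203 and No279, and 34.7% in No364. *Adipoq*, the gene of the ligand adiponectin and a marker of adipocytes, had 11.1, 0.104 and 0.042 CPM in *Cd44*+/+ and 3.77, 0.396 and 0 CPM in *Cd44*-/- tumors. It was highest in No244 and No203. Of the other 7 adipocyte markers, *Cfd*, *Retn* and *Fabp4* were also highest in this pair of tumors, with *Cfd* at 12.0 and 18.9 CPM against 0.262 to 0.487 CPM. *Lep* stayed under the floor of 3 counts in every tumor (0.084 CPM in No244 and 0.0793 CPM in No203). *Cidec* and *Pck1* were highest in No364. *Plin1* was lower in No244 (0.168 CPM, under the floor) and No203 (0.238 CPM) than in No316 and No368 (0.799 and 0.672 CPM), and was 0 CPM in No364.

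The Rab5 GTPases organise fusion and transport at the early endosome, and the APPL proteins and EEA1 bind their active form. None of the 3 differences passed the test, and *Rab5b* and *Rab5c* had higher means in the *Cd44*-/- tumors. *Rab5c* had 70.1, 100.1 and 99.2 CPM in *Cd44*+/+ and 105.0, 161.2 and 157.7 CPM in *Cd44*-/- tumors. The genotypes did not overlap, with No203 close to No316. The fitted log2 fold change came to 0.65 (standard error 0.36, 95% interval -0.22 to 1.52, adjusted p = 0.524 with edgeR) and was 0.22 with No203 alone. *Rab5b* had 26.1, 48.1 and 47.7 CPM in *Cd44*+/+ and 43.6, 88.4 and 105.6 CPM in *Cd44*-/- tumors. No203 lay among the *Cd44*+/+ tumors, and the high values were those of No279 and No364, the tumors with low *Sp7* and with counts of Y-linked genes. The log2 fold change of *Rab5b* was 0.96 (standard error 0.46, 95% interval -0.13 to 2.05, unadjusted p = 0.0744 and adjusted p = 0.483 with edgeR) and fell to 0.10 with No203 alone. *Rab5a* had 54.4, 109.4 and 109.3 CPM in *Cd44*+/+ and 80.1, 98.1 and 83.4 CPM in *Cd44*-/- tumors, which lay between the lowest and the highest *Cd44*+/+ tumor. Its fitted log2 fold change came to -0.06 (standard error 0.39, 95% interval -0.98 to 0.86, adjusted p = 0.959 with edgeR). The counts of *Rab5a* are less certain, since *Pp2d1* overlaps it on the other strand and held up to 72.2% as many counts (in No244).

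Within the Rab5 family, *Rab5c* had the largest share of the summed RPKM in every tumor, from 58.5% to 65.9%. The share of *Rab5a* was 21.3%, 26.7% and 26.8% in *Cd44*+/+ and 20.7%, 16.5% and 14% in *Cd44*-/- tumors. That of *Rab5b* was 12.8% to 14.7% in the *Cd44*+/+ tumors and 14.1%, 18.6% and 22.3% in the *Cd44*-/- tumors. No203 lay next to or among the *Cd44*+/+ tumors in these shares.

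For *Rab21*, *Eea1* and *Akt2* no difference between the genotypes passed the test. *Rab21*, the GTPase that also binds APPL1 and takes part in integrin traffic, had 17.2, 37.8 and 36.9 CPM in *Cd44*+/+ and 32, 57.5 and 30.9 CPM in *Cd44*-/- tumors. Its fitted log2 fold change came to 0.39 (standard error 0.45, 95% interval -0.68 to 1.45, adjusted p = 0.748 with edgeR). *Eea1* had 18.7, 64.8 and 61.8 CPM in *Cd44*+/+ and 40.2, 57.8 and 50.8 CPM in *Cd44*-/- tumors. The *Cd44*-/- tumors lay inside the range of the *Cd44*+/+ tumors, which was set by the low value of No244. The log2 fold change of *Eea1* was 0.03 (standard error 0.51, 95% interval -1.18 to 1.24, adjusted p = 0.983 with edgeR) and was -0.36 without No244. *Akt2*, the Akt kinase of insulin signaling that APPL1 binds, had 92.7, 58.7 and 50.6 CPM in *Cd44*+/+ and 51, 70.1 and 92.2 CPM in *Cd44*-/- tumors, with a log2 fold change of 0.08 (standard error 0.39, 95% interval -0.86 to 1.02, adjusted p = 0.948 with edgeR). Of the transcript words of *Akt2*, 9.57% are shared with its pseudogene *Akt2-ps*, which held up to 35.1% as many counts (in No279), so these counts are less certain.

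Among the 9 paralog and partner genes, edgeR called 0 at an adjusted p under 0.05, against 0 of 16839 genes tested (0%). At an unadjusted p under 0.05 it called 0 of 9, against 1810 of all genes (10.7%), of which 725 were lower in *Cd44*-/- tumors (4.31%). DESeq2 called 0 of 9, against 419 of 17952 genes with an adjusted p (2.33%). Genotypes did not overlap for 2 of 9 genes (*Appl1* and *Rab5c*), against 19.1% of all genes in either direction. Both were higher in the *Cd44*-/- tumors, against 9.49% of all genes, and 0 of 9 were lower without overlap, against 9.57% of all genes. The number without overlap was 0 of 9 when counts were scaled by library size alone (12.2% of all genes) or without mitochondrial genes (18% of all genes). Without No244, which left only the near-identical pair among the *Cd44*+/+ tumors, it was 4 of 9 (*Appl1* and *Rab5c* higher, *Rab5a* and *Eea1* lower), against 39.5% of all genes. The median log2 fold change of the 9 genes was 0.39, against 0.11 over all genes tested. It was 0.18 without No279 (0.03 over all genes), 0.15 with library size without mitochondrial genes (-0.16 over all genes) and 0.06 with No203 alone (-0.11 over all genes).

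The intervals bear on how large a shared difference could have been. The lowest bound among the 9 partner genes was -1.18 (*Eea1*), or -1.31 (*Akt2*) with No316 and No368 summed as 1 sample. The fitted value of *Appl2* (-2.15) lay below these bounds. Because that value chose the set, it is no yardstick for the partner genes, and no conclusion is drawn from the comparison. Differences inside the intervals, in either direction, were not excluded at this number of tumors.

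**Figure D3:**
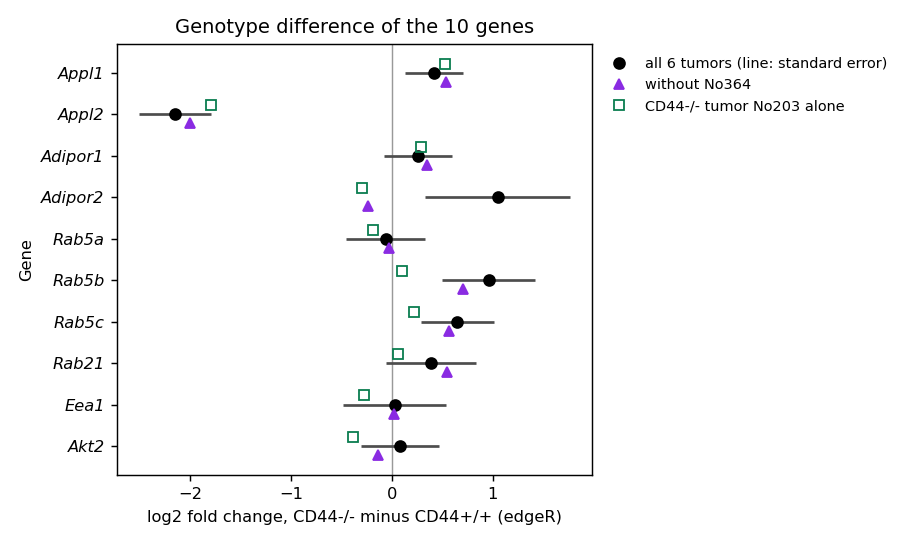
Log2 fold change of *Cd44*-/- over *Cd44*+/+ tumors for the 10 genes (edgeR), with the standard error as a line, the value without No364 as a triangle and the value with No203 alone as a square. *Appl2* lies at -2.15 in all 6 tumors and at -1.79 with No203 alone, while *Adipor2* moves from 1.05 to -0.24 without No364.

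Ordered by level per exonic length, *Appl2* held the second place of the 10 genes in *Cd44*+/+ tumors (32.3 ± 3.41 RPKM, SD, n = 2) and the eighth in *Cd44*-/- tumors (7.08 ± 1.82 RPKM, SD, n = 3). *Rab5c* was the highest in both genotypes and *Appl1* the lowest. In *Cd44*+/+ tumors the order was *Rab5c*, *Appl2*, *Adipor1*, *Rab5a*, *Adipor2*, *Akt2*, *Rab5b*, *Rab21*, *Eea1* and *Appl1*, and of neighbours in this order only *Appl2* and *Adipor1*, and *Adipor1* and *Rab5a*, differed by more than the larger of their SDs. In *Cd44*-/- tumors the order was *Rab5c*, *Adipor1*, *Adipor2*, *Rab5b*, *Rab5a*, *Akt2*, *Rab21*, *Appl2*, *Eea1* and *Appl1*. Neighbours from *Adipor1* to *Rab5a* and from *Akt2* to *Appl2* lay within the larger SD there, and the other neighbours did not.

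Across the 6 tumors several of the partner genes varied together. No244, the tumor with the high mitochondrial share and muscle markers, was the lowest for 7 of the 10 genes and the highest for *Appl2* and *Akt2*. Pearson correlations of log2 CPM over the 6 tumors, which share scaling factors and include the near-identical pair, were highest for *Rab5b* with *Rab5c* and for *Rab5a* with *Eea1* (r = 0.98 for both), followed by *Appl1* with *Adipor1* and *Adipor1* with *Rab21* (r = 0.90 for both). *Appl2* correlated negatively with each of the 9 other genes, from -0.09 with *Rab5a* to -0.87 with *Rab5c*. Because *Appl2* was chosen by its genotype difference in these same tumors, its correlations reflect that choice and are only a description. Of the 45 pairs, 28 were above 0, and the median was 0.37.

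Around *Appl2* on chromosome 10, no difference of a neighbouring gene passed the test, which 0 of all 16839 genes passed. Of 6 protein-coding genes within 500 kb, 6 were tested, and their log2 fold changes lay between -0.50 and 0.83 with adjusted p-values of 0.622 or more (edgeR). The nearest, *Washc4*, lies 3.56 kb away and encodes a subunit of the WASH complex, which acts on endosomes. It had 18.8, 43.9 and 41.2 CPM in *Cd44*+/+ and 25.3, 36.5 and 23.1 CPM in *Cd44*-/- tumors, and the genotypes overlapped. Its log2 fold change was -0.29 (95% interval -1.31 to 0.72, adjusted p = 0.806 with edgeR). Of the 10 genes, 4 (*Appl2*, *Rab5b*, *Rab21* and *Eea1*) lie on chromosome 10, and their log2 fold changes were -2.15, 0.96, 0.39 and 0.03.

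**Figure D4:**
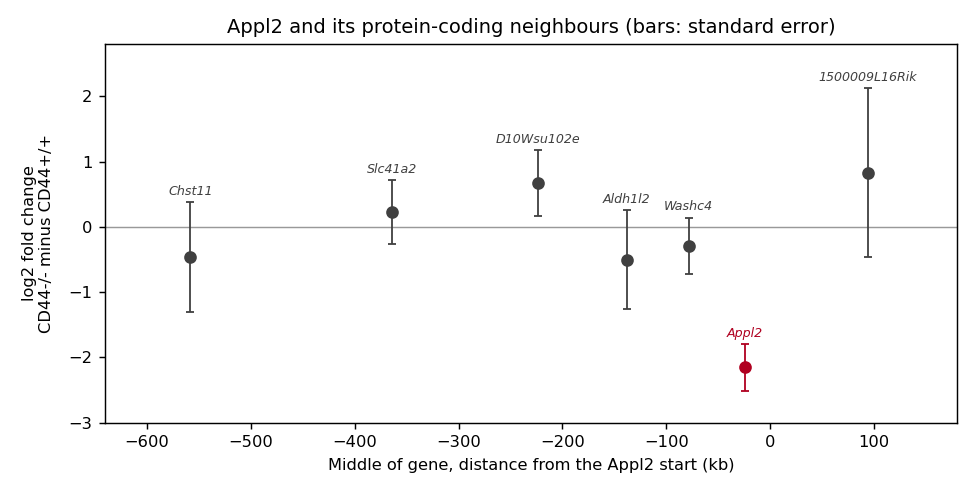
Log2 fold change (edgeR) of *Appl2* (red) and the 6 protein-coding genes within 500 kb, with bars for the standard error, against the distance of the middle of each gene from the start of *Appl2* in kb. The neighbours lie between -0.50 and 0.83, and *Appl2* lies at -2.15.

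Lists of genes of the wider pathway were compared in the same way, with 104 of 114 listed genes tested. Of the 104, 0 were called at an adjusted p under 0.05 by edgeR and 0 by DESeq2, and 5 had an unadjusted p under 0.05 (4.81%, against 10.7% of all genes), 4 of them lower and 1 higher in *Cd44*-/- tumors. Genotypes did not overlap for 20 (19.2%, against 19.1% of all genes), and the median fitted log2 fold change came to -0.01. Among 14 tested binding partners of the APPL proteins, 0 had an unadjusted p under 0.05. The phosphatase *Ocrl*, which binds APPL1, had the lowest fold change among them, with 35.0, 56.1 and 55.9 CPM in the *Cd44*+/+ tumors against 26.9, 34.9 and 16.3 CPM (log2 fold change -0.91, adjusted p = 0.463 with edgeR).

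In the adiponectin list, 13 of 16 genes were tested and their median fitted log2 fold change came to -0.36. Of the 13, 4 lay lower without overlap (*Stk11*, *Prkab1*, *Prkag1* and *Mapk14*) and *Sirt1* lay higher without overlap, which is 38.5% against 19.1% of all genes in either direction. *Prkag1*, a regulatory subunit of AMPK, had 76.0, 84.3 and 80.3 CPM in *Cd44*+/+ and 39.3, 60.1 and 41.0 CPM in *Cd44*-/- tumors (log2 fold change -0.78, standard error 0.32, adjusted p = 0.460 with edgeR). *Stk11*, the kinase that activates AMPK, had 216.9, 103.4 and 104.8 CPM against 98.5, 59.1 and 81.8 CPM, so that No316 and No203 lay close together. Its log2 fold change was -0.83 in all 6 tumors and -0.39 without No244. That of *Mapk14*, also highest in No244, was -1.02 and -0.50, whereas that of *Prkag1* was -0.78 and -0.82. Of 9 genes of the progestin and adipoQ receptor family, to which the adiponectin receptors belong, 6 were tested, and 0 of them had an unadjusted p under 0.05. *Mmd* of this family resembled *Adipor2*, with 174.6 CPM in No364 against 17.1 to 34.6 CPM in the other tumors, and its log2 fold change of 1.44 became -0.01 without No364.

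Among 14 exchange factors and GTPase activators of Rab5 or of other Rab GTPases, 3 lay lower without overlap (*Als2cl*, *Gapvd1* and *Dennd1a*). None lay higher without overlap, so the share was 21.4% against 19.1% of all genes in either direction. *Gapvd1*, which acts on Rab5, had 71.0, 68.8 and 69.5 CPM in *Cd44*+/+ and 42.9, 46.4 and 45.4 CPM in *Cd44*-/- tumors (log2 fold change -0.64, standard error 0.27, adjusted p = 0.462 with edgeR). The spread within each genotype was small, and the value was -0.70 with No203 alone. Of 33 effectors and machinery genes of the early endosome, 2 lay higher and 2 lower without overlap (12.1%, against 19.1% of all genes). *Vps16*, a core subunit of the CORVET and HOPS tethering complexes, had 72.1, 72.2 and 74.0 CPM against 36.0, 33.8 and 41.5 CPM (log2 fold change -0.97, standard error 0.28, adjusted p = 0.452 with edgeR), and it overlaps *Pced1a*. Its value with No203 alone was -1.01, and its unadjusted p (0.0116 with edgeR) was the lowest among the genes of these lists.

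Of 11 tested further endosomal Rab genes, *Rab9* and *Rab11a* lay higher and *Rab24* lower without overlap (27.3%, against 19.1% of all genes). *Rab11a*, a GTPase of recycling endosomes, had 39.7, 56.2 and 54.1 CPM in *Cd44*+/+ and 84.5, 76.5 and 99.5 CPM in *Cd44*-/- tumors (log2 fold change 0.80, standard error 0.32, adjusted p = 0.457 with edgeR). *Rab24*, which has been linked to autophagy, had 128.4, 70.1 and 64.8 CPM against 41.2, 17.8 and 37.0 CPM (log2 fold change -1.46, standard error 0.47, adjusted p = 0.452 with edgeR), and it overlaps *Prelid1*. Of 13 Akt kinases and regulators, 0 had an unadjusted p under 0.05, and their median log2 fold change was -0.08. *Tsc2*, a subunit of the complex that restrains mTORC1 and is inhibited by Akt, had 494.8, 114.7 and 105.6 CPM against 107.7, 60.8 and 43.5 CPM, and the genotypes overlapped at No203 (log2 fold change -1.75, adjusted p = 0.46 with edgeR). It overlaps *Pkd1*, its highest value was that of No244, and its log2 fold change was -0.65 without that tumor.

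**Figure D5:**
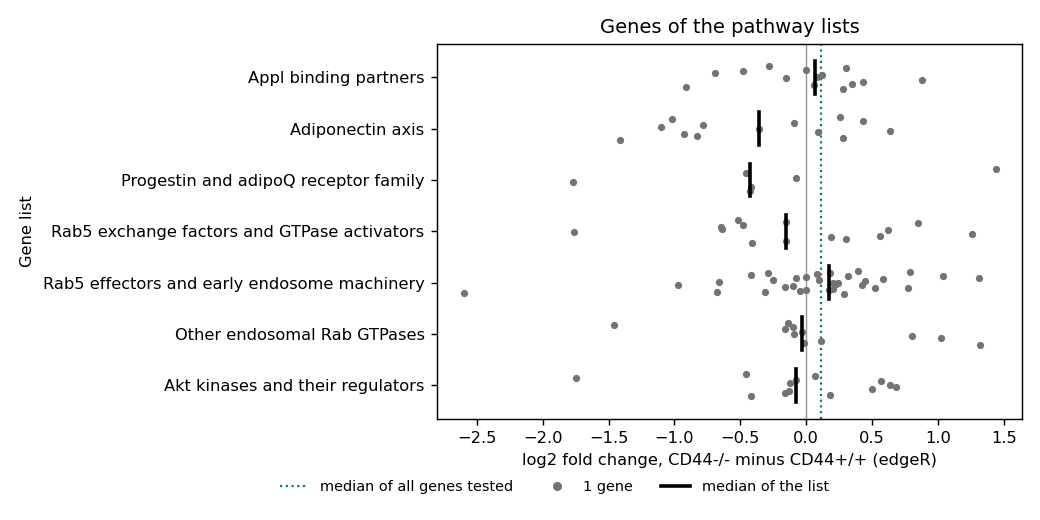
Log2 fold change (edgeR) of each tested gene of the 7 pathway lists (grey points), with the median of each list as a bar and the median of all genes tested (0.11) as a dotted line. The list medians lie between -0.42 and 0.17, and the genes of every list lie on both sides of 0.

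The genes whose levels followed *Appl2* most closely over the 6 tumors, by Pearson correlation of log2 CPM among 6109 genes with an SD of at least 1, were *Gm26947*, *Acr*, *Tfeb*, *Gm2016*, *Efr3b* and *Drd1*, with r between 0.989 and 0.997. *Tfeb*, a transcription factor of lysosomal genes, had 33.1, 31.4 and 30.4 CPM in *Cd44*+/+ and 10.2, 8.98 and 6.07 CPM in *Cd44*-/- tumors. *Efr3b* had 12.9, 11.2 and 11.5 CPM against 4.04, 2.48 and 2.83 CPM. The other 4 genes stayed under 2 CPM. These genes were picked for this pattern, so their levels carry no test.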

How the data were processed

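The authors deposited raw counts per Ensembl gene and tumor, without normalization. Per the submitters' processing notes and the study's methods, stranded mRNA libraries were demultiplexed with bcl2fastq 1.8.4, aligned to GRCm38 with HISAT2 2.0.2 and counted with featureCounts of Subread 2.0.0. The strand setting and the treatment of reads matching several genes are not given in the sources used here, so counts of overlapping genes are uncertain.

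Genotypes were taken from the labels and tested on the 6 libraries by the quasi-likelihood method of edgeR 4.0.16 (R 4.3.3) after TMM scaling and filterByExpr with default settings. P-values were adjusted over all 16839 genes by Benjamini-Hochberg, with a threshold of 0.05. Standard errors were obtained by dividing a log2 fold change by the root of its F statistic. P-values measure the spread between these tumors, and since No316 and No368 are nearly identical they may be too small. RPKM are CPM per kilobase of GENCODE M21 exons, which matched 37607 of 39179 identifiers. The fit was also run on simulated counts of independent libraries, without a near-identical pair, and no result here rests on that run. Alternatives were DESeq2 1.42.0, limma-voom (limma 3.58.1), other scalings and filters, No316 and No368 summed, a hepatocyte score as covariate, and leaving out each tumor. The use of No203 as the only *Cd44*-/- tumor was chosen after seeing the data.

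The genes and lists were chosen with earlier results of these data known. Genes named with values are the 10 genes, *Cd44*, *Adipoq*, those with the 3 smallest unadjusted p-values or the highest mean CPM in each list, coding neighbours within 500 kb of *Appl2*, and the 6 genes most correlated with it. Other genes, among them the remaining markers and those named in counts, were chosen after their values were seen. Values of *Nf2* are not reported here.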

Additional observations from a re-analysis of the deposited data

How the results depend on the processing

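No paired analysis was possible because mouse numbers are not shared between the genotypes. The 9 partner genes stayed at 0 calls at an adjusted p under 0.05 in every setting run, and edgeR and limma called 0 genes overall in every setting, whereas DESeq2 called 419. Without No203, *Rab5b* had an unadjusted p of 0.0281 (edgeR, log2 fold change 1.22). *Appl2* stayed lower in *Cd44*-/- tumors in every setting, with -1.79 for No203 alone and -2.40 to -2.00 with each tumor left out. The genotype difference in the log2 ratio of *Appl2* to *Appl1* was -2.31 for No203 alone and -2.74 to -2.46 with each tumor left out.

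Several fold changes turned sign. *Adipor2*, at 1.05 in all 6 tumors and the largest of the partner genes, was -0.33 with the hepatocyte covariate, -0.30 with No203 alone, and -0.24 to 1.41 with each tumor left out. The others lay near 0 in all 6 tumors (-0.06 to 0.08). *Rab5a* was 0.01 with limma-voom, 0.07 with No316 and No368 summed, 0.02 with the hepatocyte covariate, and -0.33 to 0.08 with each tumor left out. *Eea1* was -0.20 with library size alone, -0.27 without mitochondrial genes, -0.28 with No203 alone, and -0.36 to 0.28 with each tumor left out. *Akt2* was -0.23 without mitochondrial genes, -0.06 with No316 and No368 summed, -0.18 with the hepatocyte covariate, -0.39 with No203 alone, and -0.14 to 0.37 with each tumor left out. The cause was not tested.

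Partner genes whose genotypes do not overlap numbered 2, and 0 with library size alone, 0 without mitochondrial genes, 4 with No203 alone (55.1% of all genes), and 2 to 4 with each tumor left out. The 4 without No244 were *Appl1* and *Rab5c* (higher) and *Rab5a* and *Eea1* (lower), against 39.5% of all genes. Scaling without mitochondrial genes moved the median of all genes from 0.11 to -0.16, and of its 1637 genes with an unadjusted p under 0.05, 979 were lower, against 725 of 1810. With No316 and No368 summed this number was 761, with no filter 2543, with library size alone 1197, and 763 to 3085 with each tumor left out. There were 3 *Cd44*-/- tumors and, with No316 and No368 counted as 1, 2 *Cd44*+/+ samples. The biological coefficient of variation was 0.708. Even the difference of *Cd44* itself (log2 fold change -2.68) did not pass the adjusted threshold. Small differences could therefore not be detected, and large ones could be missed.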
